A study of Mus musculus with 24 samples.

Results

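In the mouse retina at the end of hypoxia, 18 genes had one probe set with a higher signal and another with a lower signal than in normoxia. On these arrays, several short probes to the same stretch of transcript form a probe set, and their signals are summarised as 1 value. These genes were chosen on the values at 0 h of reoxygenation. A gene was taken when at least 2 of its probe sets, each assigned to that gene alone, had a hypoxic or normoxic mean of 6.69 or more on the log2 scale, when at least one of them had a hypoxia minus normoxia difference of 0.5 or more, and when at least one had a difference of -0.5 or less. A probe set counted as assigned to a gene when its annotation gave that gene symbol alone. Whether its probes also match other sequences was not checked. The signal of 6.69 is the minimum between the peaks of low and high values on these arrays. Of 4358 genes with enough probe sets above that signal, 18 met the rule (0.413%), out of 18193 genes on the array with a probe set of their own.

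The study asked how hypoxic preconditioning, which protects photoreceptors against light, changes RNA levels in the retina. The hypoxic groups were retinas of BALB/c mice kept for 6 h at 6% oxygen and taken at 0, 2, 4 or 16 h of reoxygenation in room air and darkness, and the normoxic groups were retinas of BALB/c mice that stayed in room air and were taken in parallel at the same 4 times. All mice of both treatments carried the light-sensitive leucine variant of Rpe65, and no age or sex is given in the sources used here. Each of the 8 groups had 3 arrays. The RNA on an array came from 3 retinas, taken from different mice and pooled, and every test therefore treats the pool, not the mouse, as the unit.

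Most genes give rise to several RNAs, by splicing, by the choice of promoter and by the choice of the site where the 3' end is cleaved and polyadenylated. Expression arrays of this design mostly read sequence near 3' ends, and probe sets of 1 gene can lie in different exons, in an intron or beyond a shorter 3' end. When such probe sets move apart, the gene has no single change that describes it. The positions of the probes were not analysed here, so which stretch of RNA each probe set reads is not known, and the level of one probe set cannot be set against that of another. The comparisons below therefore use the difference between hypoxia and normoxia of each probe set, and the within-gene gap. The gap is the log2 signal of the probe set with the highest difference at 0 h minus that of the probe set with the lowest, and only its change between treatments is read.

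The 24 arrays had medians between 5.79 and 5.84 on the log2 scale. Markers of rods, the most numerous retinal cells, were bright in every pool at 0 h, with a summed linear signal, in units of 1000, of 73.2 to 75.5 in hypoxic pools and 76.0 to 77.7 in normoxic pools. Markers of the retinal pigment epithelium, the layer behind the retina, summed to 13.7 to 14.5 in hypoxic pools and 6.49 to 7.25 in normoxic pools at 0 h, and 6 of their 8 tested genes were higher in hypoxia (limma, adjusted p under 0.05). At 2 h none of those 8 genes passed the same test, and the sums were 7.65 to 10.8 in hypoxic pools and 6.35 to 8.55 in normoxic pools. Lens crystallins and other lens markers summed to 6.62 in normoxic pool 2 at 0 h, against 67.6 to 148 in the hypoxic pools and 78.8 to 104 in the other two normoxic pools. None of the 18 genes is on these marker lists, and the part of the attached tissues in their values was not tested. In bulk retina, fewer cells of a type and less RNA per cell cannot be told apart. Control probe sets at the 3' and 5' ends of Actb and Gapdh were compared as a measure of RNA integrity. Their 3' minus 5' gaps at 0 h differed by -0.00064 for Actb (exact two-sided permutation test, p = 1) and by 0.02 for Gapdh (exact permutation test, p = 0.8). At the later times they differed by -0.13 to 0.03 (exact p of 0.4 or more), where 3 pools against 3 cannot give a p below 0.10.

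Over the 18 genes at 0 h, the probe sets with the highest difference were 0.51 to 1.41 higher in hypoxia (median 0.64) and those with the lowest had differences of -1.54 to -0.51 (median -0.65). The rule fixed these directions, so the values are a description with no test. The change of the gap ran between 1.05 in Brix1 and 2.70 in Malat1. In 17 of the 18 genes all 3 hypoxic pools lay above all normoxic pools for the highest probe set, in 17 all lay below for the lowest, and in 18 of 18 the gaps of hypoxic and normoxic pools did not overlap. For scale, limma called 15.2% of all tested probe sets higher and 17.2% lower at 0 h, and 19.3% of the 4358 gaps wider. These are shares of calls, and they come from the contrast that chose the genes. The share of all probe sets or gaps whose pools did not overlap was not counted. Nothing is therefore read from these shares or from the counts of separated genes. The exceptions to the separation were Msl2 for its highest probe set and Chaserr for its lowest. The normoxic mean was below 6.69 for 3 of the highest probe sets (Fam120b, Cdk12 and Sos1), and the hypoxic mean for 3 of the lowest (Mysm1, Cdk12 and Brix1).

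**Figure D1:**
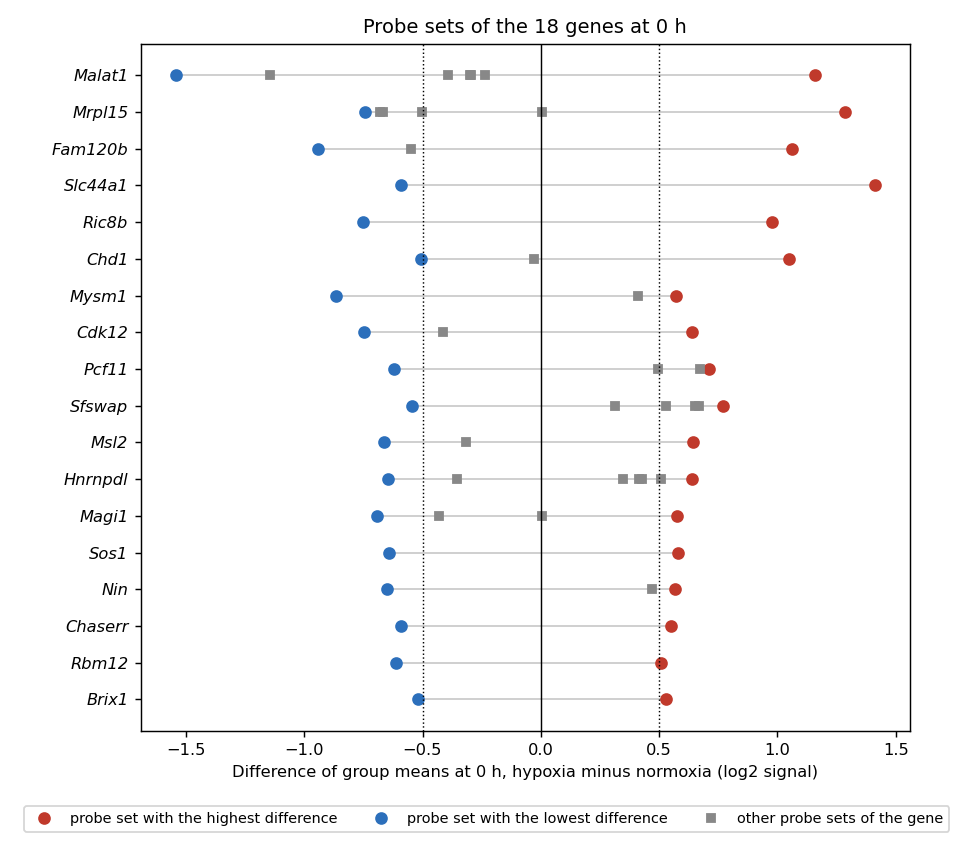
Difference of group means at 0 h (hypoxia minus normoxia, log2 signal, x axis) for each of the 64 probe sets of the 18 genes (y axis, ordered by the change of the gap, largest at the top). Red points are the highest and blue points the lowest probe set of a gene, grey squares are its other probe sets, and dotted lines mark differences of 0.5 and -0.5; Malat1 spans the widest range, between 1.16 and -1.54.

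The genes had 64 probe sets that reached the signal at 0 h, of 78 on the array with a single gene, and the other 14 stayed below it. Of the 64, 23 had a difference of 0.5 or more, 23 had one of -0.5 or less and 18 lay in between. A gene with more probe sets had more chances to meet the rule, and 0.222% of the 2697 genes with 2 probe sets, 0.565% of the 1062 genes with 3 and 1% of the 599 genes with 4 or more were members. Near the threshold, Chd1 was inside by its lowest probe set (-0.51), Rbm12 by its highest (0.51) and Brix1 by its lowest (-0.52). Just outside lay Agps (0.49 and -0.54), U2surp (0.49 and -0.53) and Hspa4 (0.48 and -0.68). Without normoxic pool 2, the pool with few lens transcripts, all 18 pairs kept opposite signs and 14 kept both differences past 0.5. The pairs that no longer did were those of Chd1, Sfswap, Chaserr and Rbm12. With each of the 6 arrays at 0 h left out in turn, 10 of the 18 pairs kept both differences past 0.5 every time, while Brix1 did so in 2 of 6 and Chd1, Chaserr and Rbm12 in 3 of 6.

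The long noncoding RNAs among the genes were Malat1 and Chaserr. Malat1, an abundant RNA of nuclear speckles, where splicing factors gather, had the widest gap change of all. Its probe set 1436202_at had a log2 signal of 9.79, 9.67 and 9.65 in hypoxic pools and 8.12, 8.93 and 8.59 in normoxic pools at 0 h. Its probe set 1429060_at had 8.75, 9.62 and 9.14 in hypoxic pools, against 10.13, 11.07 and 10.95 in normoxic pools. The first was thus higher in every hypoxic pool and the second lower in every hypoxic pool, with differences of 1.16 and -1.54. Another probe set, 1427285_s_at, differed by -1.14 with 6.53, 7.51 and 7.13 in hypoxic pools and 7.30, 8.66 and 8.64 in normoxic pools, where hypoxic pool 2 overlapped normoxic pool 1. The other 4 Malat1 probe sets differed by -0.39 to -0.24, and the pools of both treatments overlapped for each of them. So 1436202_at alone ran against the other 6. Chaserr, which in mice restrains its neighbour Chd2 and overlaps it in the RefSeq annotation, falls outside the rule for named genes and was named after its values were seen. Its probe set 1447923_at averaged 9.92 ± 0.05 in hypoxia and 9.37 ± 0.28 in normoxia (SD, n = 3 each), and its probe set 1452991_at averaged 7.45 ± 0.21 in hypoxia and 8.04 ± 0.43 in normoxia, with overlapping pools.

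Among the genes of RNA processing were Pcf11, Sfswap, Hnrnpdl, Rbm12 and Cdk12. Pcf11, a cleavage and polyadenylation factor that also acts in the end of transcription, had 3 of its 4 probe sets higher in hypoxia by 0.49 to 0.71. Of these, 1456489_at had a normoxic mean of 6.60, below the signal threshold, and passed it through its hypoxic mean of 7.27 alone. The Pcf11 probe set that was lower, 1428724_at, had 7.97, 7.90 and 8.11 in hypoxic pools, against 8.50, 8.64 and 8.70 in normoxic pools. The highest, 1427160_at, had 9.72, 9.57 and 9.42 in hypoxic pools, against 8.73, 8.81 and 9.03 in normoxic pools. For 1427160_at and 1428724_at the hypoxic and normoxic pools did not overlap, in the opposite directions that the rule fixed. Sfswap, a splicing regulator first known from Drosophila as a suppressor of white-apricot, had 5 probe sets with positive differences of 0.31 to 0.77 and 1 with a difference of -0.54. That one, 1434966_at, had 8.63, 8.61 and 8.61 in hypoxic pools and 9.00, 9.31 and 9.17 in normoxic pools, which did not overlap.

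Hnrnpdl encodes an RNA-binding protein of the hnRNP family that takes part in alternative splicing. Of its 7 probe sets, 5 were higher in hypoxia by 0.35 to 0.64 and 2 lower. Its probe set 1449039_a_at had 11.40, 11.41 and 11.43 in hypoxic pools and 10.66, 10.94 and 10.73 in normoxic pools. Its probe set 1424252_at had 9.39, 9.49 and 9.44 in hypoxic pools, against 9.74, 10.33 and 10.19 in normoxic pools. Hypoxic pools agreed closely for both, and normoxic pools were spread more widely. Rbm12, a protein with RNA recognition motifs, had 7.94, 7.73 and 8.14 in hypoxic pools and 7.29, 7.29 and 7.71 in normoxic pools for 1456964_at. For 1416928_at it had 8.97, 8.74 and 8.88 in hypoxic pools and 9.46, 9.48 and 9.48 in normoxic pools. The normoxic pools were nearly identical there, and all hypoxic pools lay below them. Cdk12, a kinase of the tail of RNA polymerase II, differed by 0.64 for 1455567_at (7.21 ± 0.07 in hypoxia and 6.57 ± 0.11 in normoxia) and by -0.75 for 1455964_at (6.12 ± 0.13 in hypoxia and 6.86 ± 0.22 in normoxia; SD, n = 3 each). For both Cdk12 probe sets one of the treatment means is below the signal threshold.

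Chromatin regulators were Chd1, Mysm1 and Msl2. Chd1, a remodeller that binds methylated lysine 4 of histone H3, had 8.57, 8.20 and 8.29 in hypoxic pools and 7.15, 7.48 and 7.29 in normoxic pools for 1431166_at. For 1457473_at it had 6.87, 7.23 and 7.05 in hypoxic pools and 7.26, 7.66 and 7.75 in normoxic pools, and its remaining probe set differed by -0.03. The gain of 1431166_at was therefore larger than the loss of 1457473_at, and the remaining one hardly moved. Mysm1, which removes ubiquitin from histone H2A, differed by 0.57 for 1439517_at and by -0.87 for 1460159_at, whose hypoxic mean of 6.01 ± 0.20 was below the signal threshold (normoxic mean 6.88 ± 0.62; SD, n = 3 each). Msl2, a ubiquitin ligase of the MSL complex, which in Drosophila equalises X-linked expression, differed by 0.64 for 1429108_at, with 8.77, 7.87 and 8.70 in hypoxic pools and 7.61, 7.73 and 8.07 in normoxic pools. Hypoxic pool 2 was low there and lay among the normoxic pools. Msl2 1453030_at differed by -0.66 without overlap.

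Mrpl15 and Brix1 act in ribosomes, Mrpl15 as a protein of the large subunit of the mitochondrial ribosome and Brix1 in building the large subunit of the cytosolic one. Mrpl15 1430798_x_at had 9.32, 9.04 and 9.12 in hypoxic pools and 7.86, 7.82 and 7.95 in normoxic pools, a difference of 1.29. Mrpl15 1434971_x_at had 9.18, 9.41 and 9.35 in hypoxic pools and 10.16, 10.01 and 10.00 in normoxic pools, a difference of -0.74. Hypoxic and normoxic pools did not overlap on either, and the rule fixed the directions. Without probe sets ending in _x_at or _s_at, Mrpl15 did not meet the rule. Of the other 4 Mrpl15 probe sets, 3 differed by -0.68 to -0.50 and 1439988_at by 0.00, so a single probe set ran against the rest. Brix1 averaged 9.96 ± 0.21 in hypoxia and 9.42 ± 0.11 in normoxia for 1451144_at, and 6.25 ± 0.24 in hypoxia and 6.77 ± 0.12 in normoxia for the dim 1423841_at (SD, n = 3 each).

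The remaining genes encode proteins of signalling, transport and cell structure. Slc44a1, a choline transporter, had the largest gain of any member probe set. Its probe set 1423865_at had 8.24, 8.38 and 8.21 in hypoxic pools and 6.96, 6.91 and 6.73 in normoxic pools, and 1433645_at had 9.61, 9.82 and 9.73 in hypoxic pools and 10.21, 10.30 and 10.42 in normoxic pools. The differences were 1.41 and -0.59, with no overlap on either side. Fam120b, a coactivator of the nuclear receptor PPAR gamma, had 7.92, 7.32 and 7.75 in hypoxic pools and 6.35, 6.80 and 6.65 in normoxic pools for 1438427_at. For 1435668_at it had 7.22, 7.44 and 7.12 in hypoxic pools and 8.29, 8.19 and 8.12 in normoxic pools. Its remaining probe set moved with the lower one, by -0.55. Ric8b, a chaperone and exchange factor for G protein alpha subunits, had 8.92, 8.67 and 8.85 in hypoxic pools and 8.01, 7.69 and 7.81 in normoxic pools for 1439724_at. For 1435096_at it had 10.67, 10.47 and 10.62 in hypoxic pools and 11.34, 11.33 and 11.35 in normoxic pools. Hypoxic and normoxic pools did not overlap for either Ric8b probe set, and the rule fixed both directions.

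Magi1, a scaffold of cell junctions, differed by 0.58 for 1451893_s_at (7.49, 7.53 and 7.44 in hypoxic pools and 6.80, 7.02 and 6.91 in normoxic pools) and by -0.69 for 1427246_at (7.71, 7.82 and 7.71 in hypoxic pools and 8.16, 8.53 and 8.63 in normoxic pools). Nin, a centrosomal protein that anchors microtubules, differed by 0.57 for 1428600_at and by -0.65 for 1419078_at, and its gap was 1.83, 1.83 and 1.83 in hypoxic pools and 0.67, 0.75 and 0.42 in normoxic pools. The hypoxic gaps of Nin were equal to the second decimal. Sos1, an exchange factor that switches on Ras, differed by 0.58 for 1421884_at (7.26, 7.13 and 7.20 in hypoxic pools and 6.60, 6.73 and 6.52 in normoxic pools) and by -0.64 for 1434389_at (7.72, 8.02 and 7.97 in hypoxic pools and 8.39, 8.59 and 8.64 in normoxic pools). Sos1 is the member for which the study lists PCR primers, and they are shown because a PCR product reads a single stretch of a transcript that these arrays read as moving both ways. The pair gives a product of 76 bp and is written in lower case, 5' to 3'. The study's PCR values for Sos1 are not reported here. Where the product lies relative to either probe set was not determined, and Sos1 is on chromosome 17.
Sos1 forward primer: tcggcaactcactttacttgaa
Sos1 reverse primer: tgtccacacacttccaactaattc

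Some of the probe sets that moved apart at 0 h were designed from the same source sequence, as the platform annotation gives it. Within the 18 genes there were 9 sets of probe sets with a shared source, and in 4 of them the signs at 0 h differed. These were the 3 probe sets of Msl2 (0.64 to -0.66), a pair of Brix1 (0.53 and -0.52) and both pairs of Hnrnpdl (0.41 and -0.35, and 0.35 and -0.65). For Msl2 and Brix1, whose probe sets in the rule all shared a source, the rule itself fixed the opposite signs. Hnrnpdl too was chosen on its 0 h values. The share of such sets over all genes was not counted. Sharing a source was still less frequent among the highest and lowest probe sets of the 18 genes, 2 of 15 genes with a known source (13.3%), than among the other genes, 1266 of 3695 (34.3%). In RefSeq, 13 of the 18 genes (72.2%) overlapped another annotated gene, against 50% of the other genes. Examples are Rbm12 with Cpne1, Hnrnpdl with Enoph1 and Malat1 with Mascrna, the small RNA cut from its 3' end. Long noncoding RNAs made up 2 of the 18 (11.1%) and 0.669% of the others. These shares are descriptions, with no test. The 18 genes had more probe sets than the other genes (median 3 against 2), and these shares were not compared at equal numbers of probe sets.

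Over all genes with enough probe sets 0.413% were members, and lists of RNA processing and transcription genes held 1 or 0 members each. Sfswap, Rbm12, Cdk12, Mysm1 and Msl2, grouped above by what they encode, were on none of these lists. Among hnRNPs and other splicing regulators, 1 of 48 genes with enough probe sets was a member (Hnrnpdl), among cleavage and polyadenylation factors 1 of 13 (Pcf11), among transcription and chromatin regulators 1 of 36 (Chd1), among SR proteins and their kinases 0 of 15, and among nonsense-mediated decay factors 0 of 5. Taken by their brightest probe set at 2 h, 5 of 67 tested hnRNPs and splicing regulators were higher and 6 lower in hypoxia, 1 of 21 SR proteins and kinases was higher and 3 lower, 2 of 21 cleavage and polyadenylation factors were higher and 0 lower, 3 of 52 chromatin regulators were higher and 3 lower, and 0 of 10 decay factors were higher and 1 lower. Over all probe sets tested at 2 h, limma called 9.19% higher and 7.38% lower.

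After 2 h of reoxygenation, whose pools came from other mice and did not enter the rule, the gaps were still wider in hypoxia for Magi1, Hnrnpdl and Nin. With limma over all 4358 genes, 3 of the 18 gaps were called wider and 0 narrower, where the call is an adjusted p under 0.05, against 3.49% of all gaps called wider and 0.0918% narrower. At an unadjusted p under 0.05 in either direction, 10 of the 18 and 651 of all 4358 gaps passed. Among the 10 was Malat1, whose change was below 0. The change of the gap was above 0 in 16 of 18 genes, with a median of 0.24, against 72.8% of all genes and a median of 0.09. The exceptions were Malat1 (-0.36 ± 0.17 SE, adjusted p = 0.323 with limma) and Cdk12 (-0.11 ± 0.14 SE, adjusted p = 0.785 with limma).

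**Figure D2:**
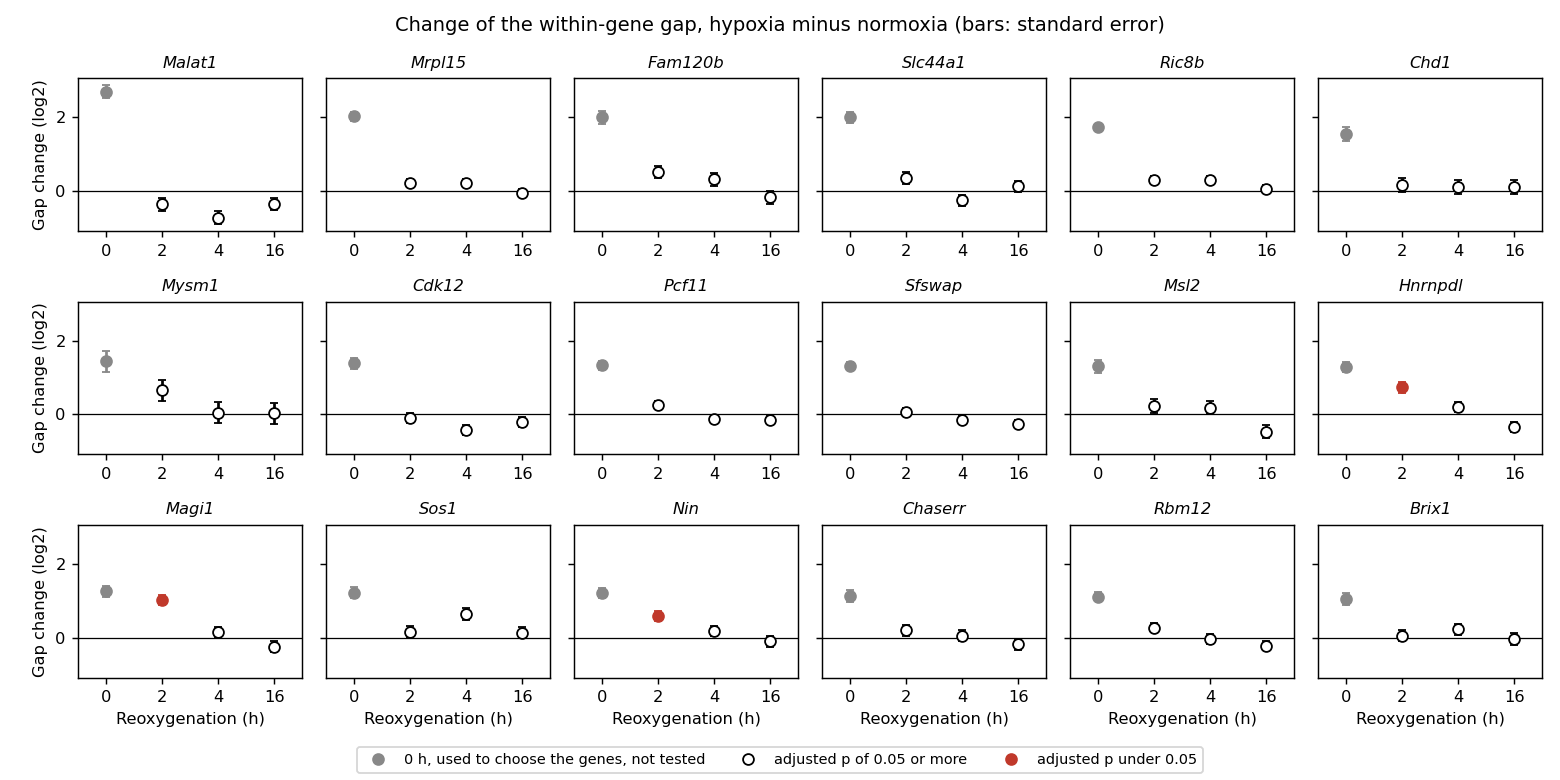
Change of the within-gene gap, hypoxia minus normoxia (log2, y axis), at 0, 2, 4 and 16 h of reoxygenation (x axis) for each of the 18 genes. Points are estimates from 3 pools per group and bars their standard errors, filled grey at 0 h (not tested), red where limma's adjusted p is under 0.05 and open elsewhere; only Hnrnpdl, Magi1 and Nin have a red point, at 2 h, and Malat1 lies below 0 from 2 h on.

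The gap of Magi1 at 2 h was -0.72, -0.54 and -0.42 in hypoxic pools and -1.58, -1.39 and -1.78 in normoxic pools. All hypoxic gaps lay above all normoxic ones, and the change of 1.02 ± 0.15 (SE) had an adjusted p of 0.000269 with limma. It rested mostly on the lower probe set, 1427246_at, with 7.84, 7.40 and 7.66 in hypoxic pools and 8.35, 8.28 and 8.69 in normoxic pools, a difference of -0.81 (limma, adjusted p = 0.00169). The highest probe set, 1451893_s_at, had 7.12, 6.87 and 7.24 in hypoxic pools and 6.77, 6.89 and 6.92 in normoxic pools, which overlapped (0.22, limma, adjusted p = 0.118). Without probe sets ending in _x_at or _s_at, Magi1 did not meet the rule. The other Magi1 probe sets, 1440071_at (-0.36, limma, adjusted p = 0.0321) and 1440871_at (-0.41, limma, adjusted p = 0.0426), fell too. The call of 1440071_at was lost without any of 4 of the 6 pools and that of 1440871_at without any of 5, with highest adjusted p values of 0.164 and 0.242 (limma).

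Hnrnpdl had the opposite emphasis at 2 h. Its gap was 1.35, 1.35 and 1.15 in hypoxic pools and 0.85, 0.52 and 0.28 in normoxic pools, a change of 0.73 ± 0.14 (SE, limma, adjusted p = 0.00343). The higher probe set, 1449039_a_at, had 11.11, 11.03 and 11.03 in hypoxic pools and 10.48, 10.44 and 10.58 in normoxic pools (0.56, limma, adjusted p = 0.000138). The lower probe set, 1424252_at, had 9.75, 9.69 and 9.89 in hypoxic pools and 9.63, 9.92 and 10.29 in normoxic pools, which overlapped (-0.17, limma, adjusted p = 0.43). For Hnrnpdl the side that was high at 0 h thus stayed high, while for Magi1 it was the low side that stayed low. Hnrnpdl 1420093_s_at (0.45, limma, adjusted p = 0.00146) and 1424251_a_at (0.23, limma, adjusted p = 0.0271) rose as well, and the call of 1424251_a_at was lost without any of 4 single pools (highest adjusted p 0.0977 with limma).

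Nin had gaps of 1.35, 1.03 and 0.95 in hypoxic pools and 0.78, 0.61 and 0.16 in normoxic pools at 2 h. They did not overlap, and the change was 0.60 ± 0.14 (SE, limma, adjusted p = 0.0204). Neither of its probe sets passed alone, with 0.28 for 1428600_at (limma, adjusted p = 0.0682) and -0.32 for 1419078_at (limma, adjusted p = 0.0646). The call was lost without hypoxic pool 1 (0.48, limma, adjusted p = 0.137) and without normoxic pool 3 (0.42, limma, adjusted p = 0.149).

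**Figure D3:**
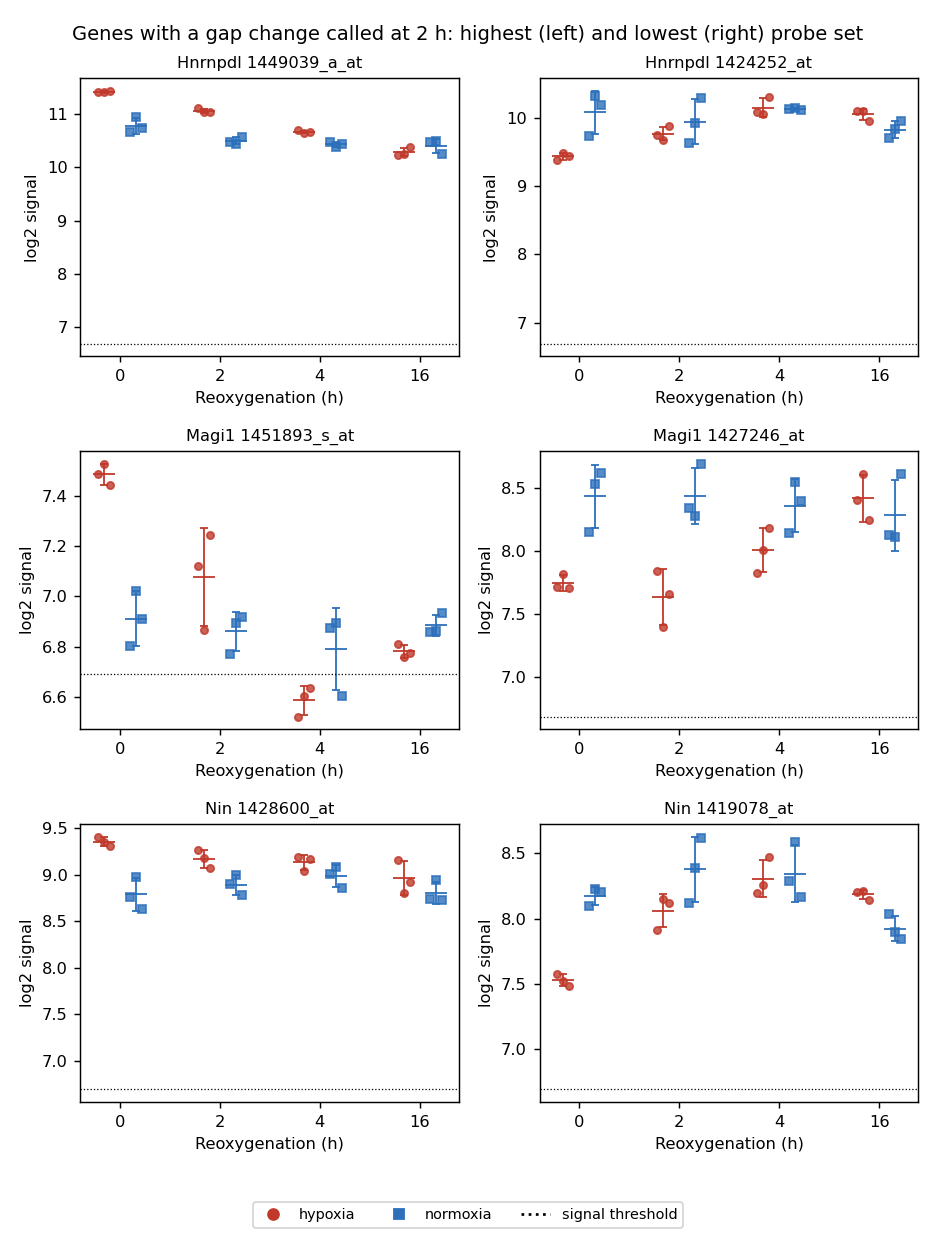
Log2 signal (y axis) of the highest (left) and lowest (right) probe set of Hnrnpdl, Magi1 and Nin at 0, 2, 4 and 16 h of reoxygenation (x axis). Each point is a pool, red circles are hypoxia and blue squares normoxia, bars give the mean and SD of 3 pools, and the dotted line is the signal threshold of 6.69; at 2 h Hnrnpdl stays separated on the left and Magi1 on the right.

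Single probe sets were tested at 2 h wherever a treatment mean reached the threshold, which 61 of the 64 did, 4 of them in one treatment alone. Of these, 8 were called, against the 9.19% higher and 7.38% lower over all probe sets. Among the highest probe sets 3 of 16 tested were called higher and 0 lower, and among the lowest 1 of 18 was called lower and 0 higher. Beside Hnrnpdl and Magi1, these were Slc44a1 and Brix1. Slc44a1 1423865_at had 7.51, 6.89 and 7.31 in hypoxic pools and 6.62, 6.70 and 6.65 in normoxic pools (0.58 ± 0.13 SE, limma, adjusted p = 0.00424). Hypoxic pool 2 lay close to the normoxic pools and the others well above. Its normoxic mean of 6.66 was below the threshold, so it entered the test through the hypoxic mean alone, and with no signal filter the adjusted p was 0.00865 (limma). Brix1 1451144_at had 9.55, 9.47 and 9.56 in hypoxic pools and 9.23, 9.25 and 9.27 in normoxic pools (0.27 ± 0.09 SE, limma, adjusted p = 0.0387), a call lost without any of 5 of the 6 pools (highest adjusted p 0.114 with limma). In both genes the probe set that was low at 0 h also had a positive difference at 2 h, without a call. These differences were 0.22 for Slc44a1 1433645_at (limma, adjusted p = 0.0624) and 0.22 for Brix1 1423841_at (limma, adjusted p = 0.273).

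At 4 h no gap of the 18 genes was called with limma, against 0.275% of all gaps called wider and 0.0229% narrower. The methods' t-test called 0 as well. At an unadjusted limma p under 0.05 in either direction, 4 of the 18 and 318 of all 4358 passed. Among the 4, Malat1 and Cdk12 had a change below 0. Gap changes lay above 0 in 12 of 18 genes, against 65.5% of all genes. The largest changes were those of Malat1 and Sos1, in opposite directions. Malat1 had gaps of -2.67, -2.74 and -2.79 in hypoxic pools and -1.92, -2.02 and -2.10 in normoxic pools, a change of -0.72 ± 0.17 (SE, limma, adjusted p = 0.0896). The pools did not overlap, and the sign was opposite to that at 0 h. Sos1 had gaps of -1.84, -1.53 and -1.86 in hypoxic pools and -2.32, -2.07 and -2.78 in normoxic pools, a change of 0.65 ± 0.15 (SE, limma, adjusted p = 0.0896). Without normoxic pool 2 the Sos1 change was 0.80 and passed (limma, adjusted p = 0.0265), but it was not called when any other single pool was left out.

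The Malat1 gap change at 4 h was not called, and the values of its probe sets are given as a description. At 4 h, 1429060_at had 11.09, 11.18 and 11.58 in hypoxic pools and 10.76, 10.76 and 10.80 in normoxic pools, a difference of 0.51 (limma, adjusted p = 0.248). At 16 h it had 11.00, 11.12 and 11.19 in hypoxic pools and 10.60, 10.71 and 10.95 in normoxic pools, a difference of 0.35 (limma, adjusted p = 0.815). The probe set that was lowest at 0 h was thus above normoxia in every hypoxic pool at both times, without passing the test. Malat1 1427285_s_at, low at 0 h as well, did the same, with differences of 0.47 and 0.56 (limma, adjusted p = 0.437 and 0.772). The share of all probe sets separated in this way was not counted, so no reversal is read from these values. The probe set 1436202_at, high at 0 h, differed by -0.28 at 2 h, by -0.21 at 4 h and by -0.00 at 16 h, with overlapping pools each time.

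**Figure D4:**
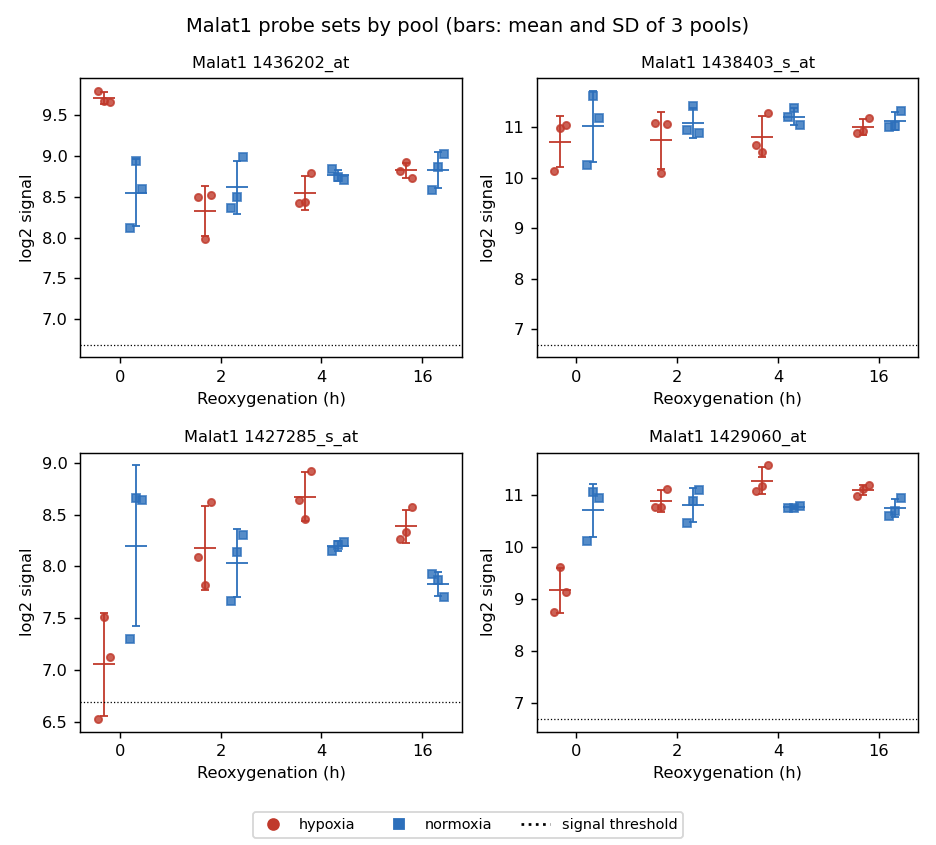
Log2 signal (y axis) of 4 of the 7 Malat1 probe sets at 0, 2, 4 and 16 h of reoxygenation (x axis), with red circles for hypoxic and blue squares for normoxic pools, bars for the mean and SD of 3 pools, and a dotted line at the signal threshold of 6.69. At 0 h, hypoxic pools are high for 1436202_at and low for 1429060_at and 1427285_s_at, and at 4 and 16 h they lie above the normoxic pools for 1429060_at and 1427285_s_at.

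Of 60 member probe sets tested at 4 h, 2 were called, against 0.876% higher and 0.551% lower over all probe sets. Sos1 1421884_at kept the direction it had at 0 h, with 6.69, 6.99 and 6.75 in hypoxic pools and 6.36, 6.58 and 5.83 in normoxic pools (0.55 ± 0.14 SE, limma, adjusted p = 0.0449). It was tested only because its hypoxic mean of 6.81 reached the threshold, which its normoxic mean of 6.25 did not, as was so at 0 h (7.20 in hypoxia and 6.61 in normoxia), and with no signal filter the adjusted p was 0.082 (limma). Normoxic pool 3 was low there, and without it the difference was 0.34 (limma, adjusted p = 0.233). Slc44a1 1433645_at, low at 0 h and higher in hypoxia at 2 h without a call, was called higher at 4 h. It had 10.39, 10.21 and 10.26 in hypoxic pools against 9.88, 10.03 and 9.90 in normoxic pools (0.35 ± 0.08 SE, limma, adjusted p = 0.0282). Its call was lost without hypoxic pool 1 (limma, adjusted p = 0.193) and without 3 other single pools, and that of Sos1 1421884_at without any of 5 of the 6 pools.

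**Figure D5:**
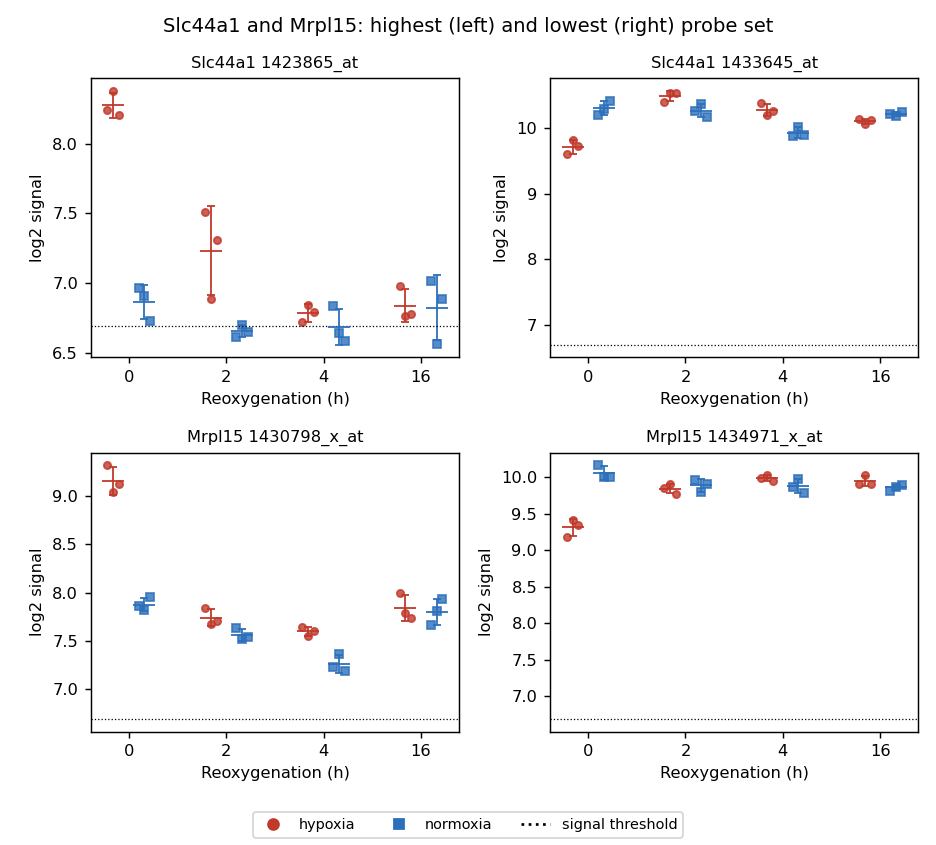
Log2 signal (y axis) of the highest (left) and lowest (right) probe set of Slc44a1 and Mrpl15 at 0, 2, 4 and 16 h of reoxygenation (x axis), with red circles for hypoxic and blue squares for normoxic pools, bars for the mean and SD of 3 pools, and a dotted line at the signal threshold of 6.69. Slc44a1 1433645_at is below normoxia at 0 h and above it at 2 and 4 h. Both Mrpl15 probe sets are far apart between treatments at 0 h alone.

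At 16 h neither gaps nor probe sets were called, among the 18 genes or among all genes, so that the share called was 0% in each direction. At an unadjusted p under 0.05 in either direction, 3 of the 18 gaps and 343 of all 4358 passed with limma. The 3 were those of Sfswap, Msl2 and Hnrnpdl, all with a change below 0. Gap changes lay above 0 in 5 of 18 genes, with a median of -0.16, against 54.4% of all genes and a median of 0.02. Msl2 had the lowest gap change (-0.47, limma, adjusted p = 0.581) and Sos1 the highest (0.14, limma, adjusted p = 0.816). Of 59 member probe sets tested at 16 h, 0 were called, and 7 had an unadjusted p under 0.05, as had 1173 of all 18429 tested.

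The change of the gap was also compared between reoxygenation times. Between 2 h and 16 h it differed for Magi1 by 1.26 ± 0.21 (SE, limma, adjusted p = 0.00223) and for Hnrnpdl by 1.07 ± 0.20 (SE, limma, adjusted p = 0.00642), where 0.918% of all gaps passed. In both genes the gap was wider in hypoxia at 2 h, and the pools overlapped at 16 h. For Nin the same difference was 0.70 (limma, adjusted p = 0.13). Between 2 h and 4 h, where 0.115% of all gaps passed, and between 4 h and 16 h, where 0.0229% passed, 0 of the 18 were called.

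Without hypoxia, the gaps of the 18 genes at 2, 4 and 16 h were compared by an F test over the 3 normoxic groups. Mrpl15 passed (limma, adjusted p = 0.043), 1 of 18 against 0.872% of all gaps, and 2 of the 18 and 782 of all 4358 had an unadjusted p under 0.05. Its gap in normoxic pools was -2.33, -2.28 and -2.36 at 2 h, -2.63, -2.61 and -2.60 at 4 h and -2.15, -2.06 and -1.96 at 16 h. The 3 groups did not overlap, and the 4 h pools had the lowest values. The call was lost without normoxic pool 1 at 2 h, without any pool at 4 h and without normoxic pool 3 at 16 h, with a highest adjusted p of 0.145 (limma). Both probe sets of the Mrpl15 pair end in _x_at. With probe sets ending in _x_at or _s_at left out, the adjusted p for Mrpl15 was 0.606 (limma). In hypoxic pools the Mrpl15 gap was -2.01, -2.23 and -2.07 at 2 h, and its change against normoxia there was 0.22 (limma, adjusted p = 0.371).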

How the data were processed

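Retinal RNA of 24 pools was hybridised to Affymetrix mouse arrays. The authors deposited log2 values made with RMA (version not given in the sources used here), which corrects background, normalises between arrays and summarises the probes of a probe set; the study's own lists used GCRMA values, which were not used here. Of 45101 probe sets, 64 were controls, and the 34945 with 1 gene symbol were used (932 had several and 9160 none).

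Tests used limma 3.58.1 in R 4.3.3 with a mean for each of 8 groups over all arrays (16 residual degrees of freedom), moderated spread and Benjamini-Hochberg adjustment, over all probe sets above the signal threshold at a time or over the gaps of all 4358 genes, each with its own pair from the 0 h arrays. In gene lists a gene stood for its brightest probe set. Members and lists were chosen with earlier results of these data known. Genes were named by rule: the 12 largest gaps at 0 h, genes called later, the 3 nearest on either side of the threshold, genes that the study or a list names, and those with 4 or more probe sets. Alternatives were other normalisations, spreads, weights, filters, tests and thresholds, a replicate block and each array left out. The fit was tested on simulated data. RefSeq GRCm38.p6 gave gene types and overlaps for all 18 members; the files name no build. The number of arrays limits the precision, and no 2 arrays correlated above 0.997.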

Additional observations from a re-analysis of the deposited data

Results flagged for a closer look

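The change of the within-gene gap, hypoxia minus normoxia, differed between 2 h and 16 h of reoxygenation for Magi1 by 1.262 and for Hnrnpdl by 1.071 on the log2 scale (limma, adjusted p = 0.00223 and 0.00642). Both were picked out by the test of the difference between times, which 40 of all 4358 gaps passed (0.918%). That test was not rerun under the alternatives given below. The gap change of Magi1 was 1.02 at 2 h, 0.15 at 4 h and -0.24 at 16 h, and that of Hnrnpdl was 0.73, 0.21 and -0.34 at the same times.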

How the results depend on the processing

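At 2 h, 3 gaps were called; array quality weights gave 6 (adding Fam120b, Ric8b and Slc44a1), the 6 arrays of the time alone 1 (Magi1), the methods' t-test with Benjamini-Hochberg adjustment 0, and leaving out 1 array 2 to 5, with 5 without hypoxia 2 h replicate 2 (adding Ric8b and Slc44a1). Probe sets called in their 0 h direction numbered 4 at 2 h, and 1 with the t-test, 8 at an adjusted p under 0.1 and 3 to 6 with 1 array left out. At 4 h the gaps called were 0, but 4 with array quality weights (Malat1, Cdk12, Ric8b and Sos1), 1 with the 6 arrays alone (Malat1, limma, adjusted p = 0.00936), 2 at an adjusted p under 0.1 and 0 to 1 with 1 array left out. The single probe set called in its 0 h direction at 4 h became 2 with a trended, robust spread, 3 with array quality weights, 3 at an adjusted p under 0.1, 0 with the 6 arrays, the t-test, no signal filter or a threshold higher by 1, and 0 to 1 with 1 array left out. The single Mrpl15 call among normoxic groups became 2 calls with array quality weights and 0 with a trended, robust spread, the 9 normoxic arrays alone, without normoxia 0 h replicate 2 and normoxia 16 h replicate 3 (which had few lens transcripts and a high Actb 3' minus 5' gap of 1.19), without _x_at and _s_at probe sets, or with the signal threshold in every normoxic group, and 0 to 1 with 1 array left out. A difference of 0.4 in the rule gave 43 genes, one of 0.75 gave 3 (Fam120b, Malat1 and Ric8b), a threshold higher by 1 gave 11, and leaving out 1 array at 0 h gave 16 to 25. Quantile normalisation and median centring each kept 17 of the 18, without Chd1. Leaving out _x_at and _s_at probe sets kept 16 of the 18, without Mrpl15 and Magi1. The gaps called at 2 h were then 2, those of Hnrnpdl and Nin. At 16 h, 0 gaps and 0 probe sets in their 0 h direction were called under every alternative run, the t-test included. No direction of a gap change or probe set that was called was reversed. With the middle in place of the 5' control probe set, the sign turned for Actb at 2 h (0.06 for -0.03) and Gapdh at 4 h (0.0043 for -0.0072), neither of them a call. The causes of these changes were not tested.

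Replicate numbers are shared between treatments, and deviations of same-numbered arrays correlated between -0.269 and 0.219, with 5 of 12 pairs above 0.1. With 3 arrays per group, these values cannot show whether same-numbered arrays were handled together. The tests as reported used no pairing. With replicate number as a block, 3 gaps were called at 2 h (Magi1, Hnrnpdl and Nin), 0 at 4 h and 0 at 16 h, and 3 probe sets in their 0 h direction at 2 h and 0 at 4 h.

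With 3 pools per group and dim signals near 6.69, small changes could not be detected, and a probe set not called is not shown to be unchanged.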
